A study of Homo sapiens with 8 samples.

Results

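The peaks at zinc transporter genes and at MTF1 were examined in the Cut&Run peak list of zinc-induced U937-PR9 cells, made with an antibody to PML::RARA. The rule took every peak to which the authors had given the symbol of 1 of 10 listed genes, namely MTF1, the exporters SLC30A1, SLC30A5, SLC30A6, SLC30A7 and SLC30A9, and the importers SLC39A1, SLC39A6, SLC39A7 and SLC39A10. It added every peak without a symbol whose centre lay within 50 kb of the centre of such a peak. This gave 11 of the 15412 peaks in the list, of which 8 carried a symbol and 3 did not. The 8 were spread over 7 of the 10 genes, and SLC30A7, SLC30A9 and SLC39A7 had no peak under their own symbol. A peak with a symbol is called a promoter peak here. The authors assigned a genomic feature to a peak where the apex, the point of largest signal, overlapped it. That symbols mark promoters is inferred, as how they were given is not stated.

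U937-PR9 is a monocytic line in which a PML::RARA transgene stands behind a zinc-inducible promoter, so that zinc itself is the inducer. The induced cells were given 100 μM ZnSO4 for 5 h and the uninduced cells sterile water, and both carry the transgene. Of the 8 libraries in the series, the list stands for 2, the induced replicates of the PML::RARA antibody. Libraries made with the RARA antibody, and those of uninduced cells, were not analysed here. Zinc treatment and PML::RARA cannot be told apart in these cells, since no library of zinc-treated cells without the transgene was among those labelled. In Cut&Run, a nuclease tethered to the antibody cuts the DNA around the bound protein, and the released fragments are sequenced.

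Cells keep free zinc low by moving it across membranes. The SLC30 family carries zinc out of the cytosol, either out of the cell or into organelles, and the SLC39 family carries it into the cytosol. MTF1 is a zinc-sensing transcription factor that binds metal response elements in DNA when zinc rises, and SLC30A1 and the metallothionein genes are its classical targets. PML::RARA keeps the DNA-binding domain of the retinoic acid receptor RARA, which recognises retinoid half-sites together with RXR partners.

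Each peak has 1 width, 1 height (the largest signal within it) and 1 total signal, and whether these come from 1 replicate or both is not stated. With no value per replicate, no spread between replicates can be stated and no test was run. Values are therefore set beside the whole list, as the share of peaks that were lower or narrower. Positions are on hg19, and distances were taken to the nearest transcript start of the gene in GENCODE release 44. The sequencing depth is unknown. In the whole list the median height was 25 (range 13 to 87) and the median width 829.5 bp (77 to 7313 bp). Promoter peaks, 7169 in number, had a median height of 26 and a median width of 1108 bp.

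The sequences around the apex of the exporter promoters are shown first, because these 3 promoters ranked 1, 3 and 4 of the 11 peaks by height and because 2 of them hold the core of a metal response element. The core was searched as TGCACNC and TGCGCNC on both strands, and a match is in capitals. GAGTGCA is TGCACTC read on the other strand. Each run lies upstream of the first exon of the gene, is read 5′ to 3′ on the strand of the gene and holds the apex at its middle. They lie at chr1:211752526-211752646 (minus strand) for SLC30A1, chr2:32390776-32390896 (plus strand) for SLC30A6 and chr5:68389681-68389801 (plus strand) for SLC30A5.
SLC30A1: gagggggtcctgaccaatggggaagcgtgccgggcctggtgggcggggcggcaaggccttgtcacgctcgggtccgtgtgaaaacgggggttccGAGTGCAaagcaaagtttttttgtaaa
SLC30A6: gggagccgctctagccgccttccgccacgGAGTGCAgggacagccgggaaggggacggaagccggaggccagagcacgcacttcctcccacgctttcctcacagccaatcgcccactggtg
SLC30A5: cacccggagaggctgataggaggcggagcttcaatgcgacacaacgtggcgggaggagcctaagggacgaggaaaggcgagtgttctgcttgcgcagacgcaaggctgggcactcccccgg

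The other matches are shown as 30 bases each, to give the site with its surroundings. The SLC30A1 site lies in the transcribed first exon, the SLC39A10 site in a 5′ UTR, and the SLC39A1 site outside annotated exons. They lie at chr1:211752462-211752491 (minus strand), chr2:196521972-196522001 (plus strand) and chr1:153936232-153936261 (minus strand).
SLC30A1 exon: cgagaccgggccGAGTGCAgctgccgtggc
SLC39A10: cggagaggagaTGCACACggcactcgagtg
SLC39A1: gtcctccacagaTGCGCCCcagggccccag

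SLC30A1, the plasma membrane transporter that expels zinc from the cell, had the highest and the widest of the 11 peaks. On chromosome 1 it spanned 211750974 to 211753510. It was 39 high and 2537 bp wide, and its total signal was 29756. By height 85.0% of all peaks were lower (rank 2104 of 15412, a height shared by 209 peaks), whereas by width 97.2% were narrower (rank 432). Thus it stood out from the list more by its width than by its height. The peak reached 1007 bp upstream of the SLC30A1 start site and 1529 bp into the gene (ENSG00000170385, minus strand, 211744910 to 211752503), and its apex lay 83 bp upstream of that site. Its mean signal over the width was 11.7 per bp, above that of 78.4% of peaks.

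The 2 metal response element cores of SLC30A1 lay on either side of the start site. One was 46 bp upstream of the start site and 37 bp from the apex, and the other 27 bp downstream of the start site and 110 bp from the apex. Both read TGCACTC on the strand opposite to the gene. The same window of 200 bp on each side of the apex held 6 GC boxes (GGGCGG), the motif bound by SP1-type factors, and 2 CCAAT boxes. Among all promoter peaks, 15.9% held 2 or more metal response element cores in such a window.

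SLC30A5 and SLC30A6, whose products form a heterodimer that loads zinc into the early secretory pathway, had promoter peaks of similar height and different width. The SLC30A6 peak (chromosome 2, 32390629 to 32391250) was 31 high and 622 bp wide. That of SLC30A5 (chromosome 5, 68389554 to 68390588) was 29 high and 1035 bp wide. By height 68.7% of the list was lower than the SLC30A6 peak and 63.2% lower than the SLC30A5 peak, but by width 33.3% and 63.5% were narrower. Among promoter peaks alone, 15.8% were narrower than the SLC30A6 peak and 44.7% narrower than the SLC30A5 peak. The SLC30A6 peak was thus a narrow peak of more than median height, with a mean signal of 11.3 per bp against 8.41 per bp at SLC30A5. The apexes lay 74 bp (SLC30A6) and 77 bp (SLC30A5) upstream of the own start site, close to the 83 bp seen at SLC30A1.

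The SLC30A6 apex had a metal response element core 28 bp away, in an exon of the divergent noncoding gene SLC30A6-DT. An ETS-type site (AGGAAGT) lay 22 bp from the apex. At SLC30A5 neither of these motifs occurred within 200 bp of the apex, and the only match to a searched motif was 1 CCAAT box.

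SLC30A7 and SLC30A9 had no peak over the gene. SLC30A7 (ENSG00000162695), a transporter of the early secretory pathway, lies on chromosome 1 from 101361632 to 101447313. The nearest peak of the list was 276078 bp from the gene, so that its whole surroundings were without a peak. SLC30A9 (ENSG00000014824), which exports zinc from mitochondria, lies on chromosome 4 from 41992519 to 42092478. The nearest peak there was 54989 bp from the gene and was assigned to TMEM33, with a height of 19.

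Among the importers, SLC39A1, a plasma membrane zinc transporter, had 2 promoter peaks on chromosome 1. The higher, between 153939567 and 153940814, was 32 high and 1248 bp wide, and the lower, between 153935675 and 153936494, was 19 high and 820 bp wide. They occupied different start sites of the same gene. The apex of the higher peak lay 12 bp upstream of an SLC39A1 start site but 4187 bp upstream of that of the canonical transcript. The apex of the lower peak lay 16 bp downstream of its nearest start site and 88 bp upstream of the canonical one. The canonical start of SLC39A1 (ENSG00000143570, minus strand, 153931575 to 153940660) therefore carried the lower of the pair, with 19.5% of the list below it, against 71.5% for the other.

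SLC39A6 and SLC39A10, related plasma membrane transporters that can form a heteromer, had 1 promoter peak each, both below the median height of the list. That of SLC39A6 (chromosome 18, 33709213 to 33709948) was 24 high and 736 bp wide, with 45.3% of the list lower and 42.9% narrower. SLC39A10 (chromosome 2, 196521511 to 196522152) was 21 high and 642 bp wide, with 30.6% lower and 35.1% narrower. The SLC39A10 gene (ENSG00000196950, plus strand) is annotated from 196440701, yet the peak sat far downstream of that position, with its apex 36 bp downstream of an internal start site and 54 bp upstream of the canonical one. The SLC39A10 peak held 1 metal response element core, 90 bp from its apex. It lay 27 bp downstream of the start site nearest to it, which is neither of the start sites just named.

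The SLC39A6 apex lay 433 bp upstream of the SLC39A6 start site but 62 bp from a start site of ELP2, a subunit gene of the Elongator complex on the other strand. ELP2 itself did not occur among the symbols of the list. The smallest distance between start sites of SLC39A6 and ELP2 was 59 bp. Hence the only SLC39A6 peak also covered the ELP2 promoter, and the symbol does not tell which of the genes the signal belongs to.

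SLC39A7 (ENSG00000112473, plus strand of chromosome 6 from 33168082 to 33172216), which releases zinc from the endoplasmic reticulum, had no peak under its symbol but did have a peak over its promoter. That peak, from 33167576 to 33169436, carried the symbol RXRB. RXRB encodes a retinoid X receptor and lies head to head with SLC39A7, with start sites as close as 161 bp. The apex was 46 bp from an SLC39A7 start site and 115 bp from the nearest RXRB start site. At 37 high and 1861 bp wide, it was higher than each of the 4 listed importer peaks (81.7% of the list was lower and 91.2% narrower). It held 2 ETS-type sites and 3 CCAAT boxes within 200 bp of the apex, and no metal response element core. It is not among the 11 peaks of the rule, since it bears another gene's symbol.

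A similar placement was found at the higher SLC39A1 peak, whose apex lay 168 bp from a start site of CREB3L4 on the opposite strand, and CREB3L4 was not among the symbols either. Counting any start site, SLC30A7 with EXTL2, SLC39A1 with CREB3L4, SLC39A6 with ELP2 and SLC39A7 with RXRB lay within 1 kb on opposite strands. A peak lay at each of these pairs except SLC30A7 with EXTL2. By canonical start sites only SLC39A6 and SLC39A7 had such a partner. How common such pairs are among all protein-coding genes was not counted, so no pattern is read from them.

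**Figure D1:**
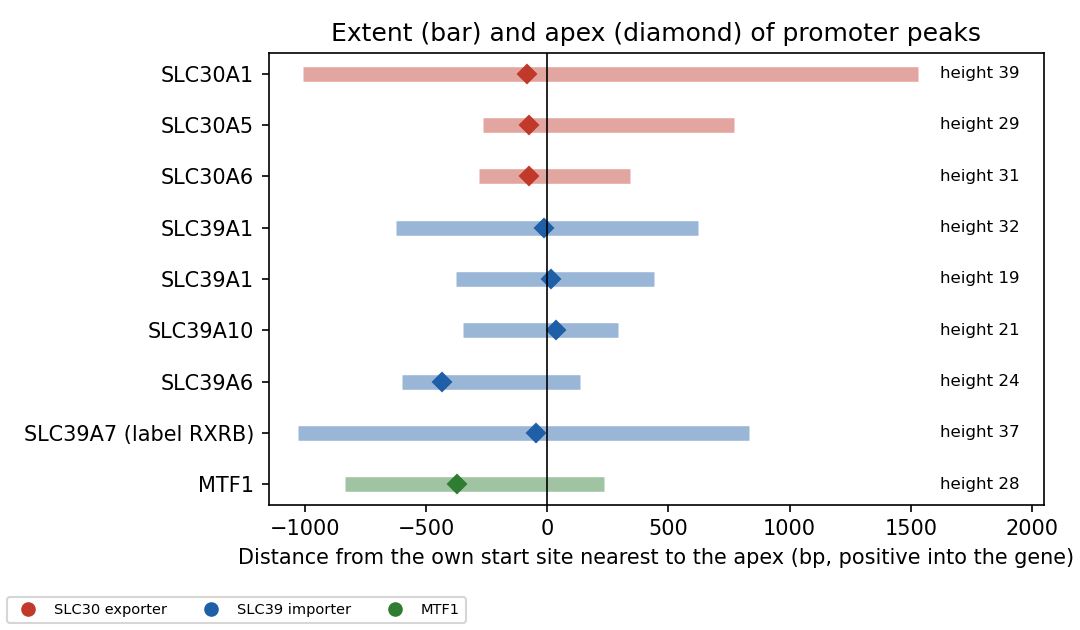
Extent of each promoter peak (bar) and its apex (diamond) as the distance in bp from the transcript start of the gene nearest to the apex, positive into the gene, with the peak height at the right. The 3 exporter apexes sit 74 to 83 bp upstream, those of SLC39A6 and MTF1 lie 433 and 374 bp upstream, and the SLC30A1 bar is the longest.

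MTF1 (ENSG00000188786) lies on the minus strand of chromosome 1 between 38275246 and 38325264, and its 1 promoter peak spanned 38325030 to 38326100. Its height was 28 and its width 1071 bp, so that 60.1% of the list was lower and 65.4% narrower. Among promoter peaks alone, 55.1% were lower and 47.3% narrower. The stretch of largest signal was unusual in length. It spanned 484 bp, from 38325397 to 38325880, longer than in 99.6% of all peaks, against 2 to 15 bp in the 7 transporter peaks with a symbol. Its midpoint lay 374 bp upstream of the MTF1 start site, and the position of the apex is correspondingly uncertain. The peak lay mostly upstream, with 836 bp before and 234 bp beyond the start site. No metal response element core, retinoid half-site, ETS-type site or CCAAT box occurred within 200 bp of the midpoint, and 1 GC box did.

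The 3 peaks without a symbol were narrow. Of these, 2 lay upstream of SLC30A1, from 211780113 to 211780587 (height 21, width 475 bp) and from 211786621 to 211786993 (height 24, width 373 bp). SLC30A1 was the nearest protein-coding gene of both, at 27945 and 34342 bp from its start site. The third, on the SLC39A1 side from 153892867 to 153893286, was 16 high and 420 bp wide, and 0.13% of the list was lower. Its apex was inside GATAD2B, 1446 bp from a start site of that gene and 42555 bp from SLC39A1. The centre of this peak was 43008 bp from the nearer SLC39A1 peak, so that proximity alone placed it in the set. All 3 were below the median height of the list, and 10.8 to 19.5% of the list was narrower.

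These 3 differed from the 8 promoter peaks in base composition as well. GC content within 200 bp of the apex was 44.9 to 53.1% in the peaks without a symbol and 56.6 to 69.1% in the promoter peaks, with no overlap. In the whole list the medians were 52.9% for the 8243 peaks without a symbol and 64.3% for promoter peaks. The ratio of observed to expected CpG was 0.0499 to 0.302 against 0.654 to 1.14, beside medians of 0.257 and 0.808 in the list. Both groups thus lay where the list as a whole placed peaks of their kind.

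Each SLC39A1 peak had 5 other promoter peaks within 50 kb, the other SLC39A1 peak included, and 1 peak without a symbol. SLC30A1 had 2 others, both without a symbol. MTF1, SLC30A5, SLC30A6, SLC39A6 and SLC39A10 had no other peak of any kind within 50 kb, which makes 5 of the 8 promoter peaks beside 29.7% of all promoter peaks. For MTF1 this rests on the width of the window, because a peak assigned to YRDC began 50520 bp away. SLC39A6 was the most isolated, with the nearest other peak 319185 bp away. A promoter peak of the list had a median of 1 other peak within 50 kb.

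**Figure D2:**
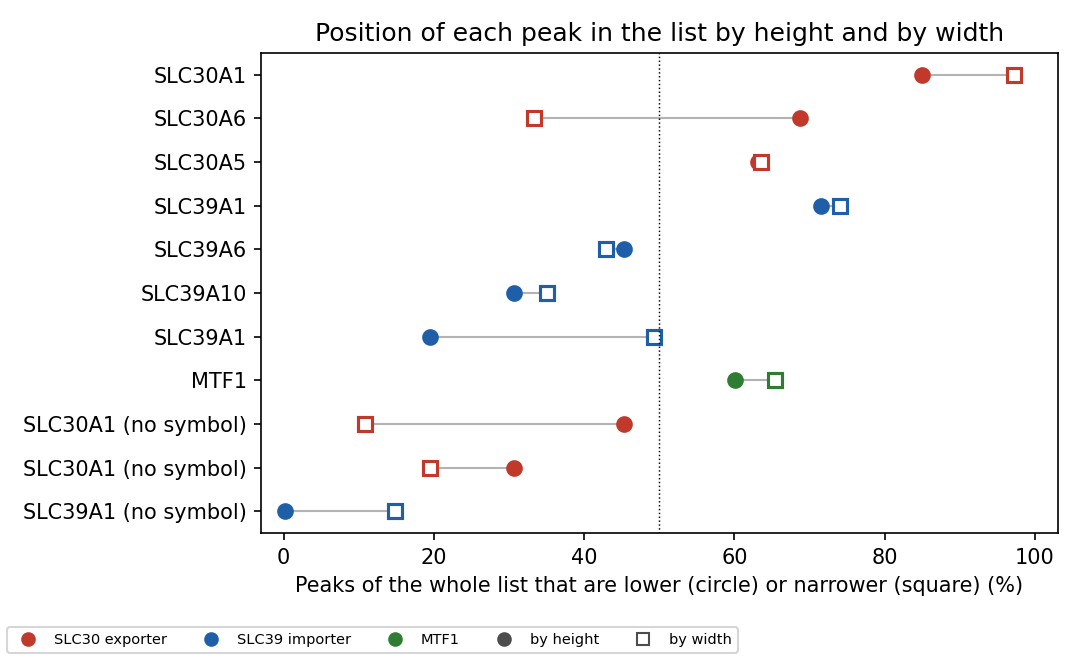
Share of the 15412 peaks that were lower (circle) or narrower (square) than each of the 11 peaks, in percent, with the dotted line at the median of the list. SLC30A6 lies at 68.7% by height but 33.3% by width, and the lower SLC39A1 peak at 19.5% and 49.3%, while the peaks without a symbol lie left of the line by both measures.

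Exporter and importer promoter peaks were then set side by side. The 3 exporter peaks had heights of 29 (SLC30A5), 31 (SLC30A6) and 39 (SLC30A1), a median of 31. The 4 importer peaks had heights of 19 and 32 (SLC39A1), 21 (SLC39A10) and 24 (SLC39A6), a median of 22.5. The ranges overlapped, because the higher SLC39A1 peak exceeded 2 of the 3 exporter peaks, and the importers other than this peak lay below every exporter. The difference of the medians was 0.47 on the log2 scale. Widths overlapped more widely, at 622 to 2537 bp for exporters and 642 to 1248 bp for importers, with a difference of medians of 0.41 on the log2 scale.

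Neither difference was tested, and both rest on few peaks. When only peaks that reached the median height were kept, which leaves 1 importer peak, the height difference was -0.05 and the width difference -0.27. For width it was 0.05 without the SLC30A1 peak, an alternative chosen after seeing the data, so that this 1 peak made most of it. With the SLC39A7 peak labelled RXRB added to the importers, also chosen after seeing the data, the height difference was 0.37.

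The list of members leaves out 4 further importers that carried their own symbol. SLC39A13, an importer of the secretory pathway, had a peak of height 46, which exceeded 92.8% of the list (chromosome 11, 47429132 to 47430276). It was the highest among peaks with a zinc transporter symbol or an apex within 1 kb of a start site of such a gene. Other peaks inside these genes were not ranked. SLC39A8, which carries zinc and manganese, had a peak of height 29 and width 1795 bp. SLC39A11 had a peak of height 24, and that of SLC39A4, the intestinal zinc importer, reached only 17 at a width of 2090 bp. The SLC39A4 apex lay in intron 10 of the canonical transcript, 526 bp downstream of an internal start site. It was 3801 bp downstream of the canonical start, which the peak did not reach. Over all 8 peaks with an SLC39 symbol the median height was 24 and the median width 1043.5 bp. Against these the difference of the median log2 widths was 0.00 and that of the log2 heights 0.37.

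Counted over the whole families, 3 of the 10 SLC30 genes and 7 of the 14 SLC39 genes had a promoter peak under their own symbol, or 30.0% (Wilson 95% interval 10.8 to 60.3%) and 50% (26.8 to 73.2%). Of 20136 protein-coding genes 29.9% had one. By this rule the SLC30 share was thus at the background, and the interval of the SLC39 share included that background. These intervals cover the counting of genes only. Counted by an apex within 1 kb of an own start site, the SLC30 genes were again SLC30A1, SLC30A5 and SLC30A6, while 10 SLC39 genes qualified, or 71.4% (45.4 to 88.3%), beside 39.3% of all protein-coding genes. The 3 genes gained were SLC39A3, SLC39A7 and SLC39A9. SLC39A4 met this rule at an internal start site, not at its canonical one. The SLC39A3 peak (height 23, apex 67 bp from the start site) had no symbol, and that of SLC39A9 (height 19) was assigned to ERH, which lies head to head with it.

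SLC30A2, SLC30A3, SLC30A4, SLC30A8 and SLC30A10 had no apex within 1 kb of a start site, nor did SLC39A2, SLC39A5, SLC39A12 and SLC39A14. SLC30A8, the zinc transporter of insulin granules, and SLC30A3, that of synaptic vesicles, belong to this group. At SLC39A5 and SLC39A2 the nearest apexes were 5762 and 9365 bp from a start site, and at SLC39A12 the nearest was 581197 bp away. Of the 11 metallothionein genes, which encode the cysteine-rich proteins that bind zinc in the cytosol, 5 had a peak under their symbol, or 45.5% (Wilson 95% interval 21.3 to 72.0%) beside 29.9% of protein-coding genes. The symbols were not all those of the gene at the peak. Both peaks assigned to MT1A, with heights of 47 and 18, had their apexes 30149 and 31317 bp from the MT1A start site but 67 and 1235 bp from that of MT2A, which did not occur among the symbols. The peaks of MT1E, MT1F, MT1G and MT1X had heights of 22, 34, 31 and 35 and apexes 8 to 455 bp from their own start sites. Counted by an apex within 1 kb of an own start site, MT2A took the place of MT1A and the share was again 45.5%, beside 39.3% of protein-coding genes.

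**Figure D3:**
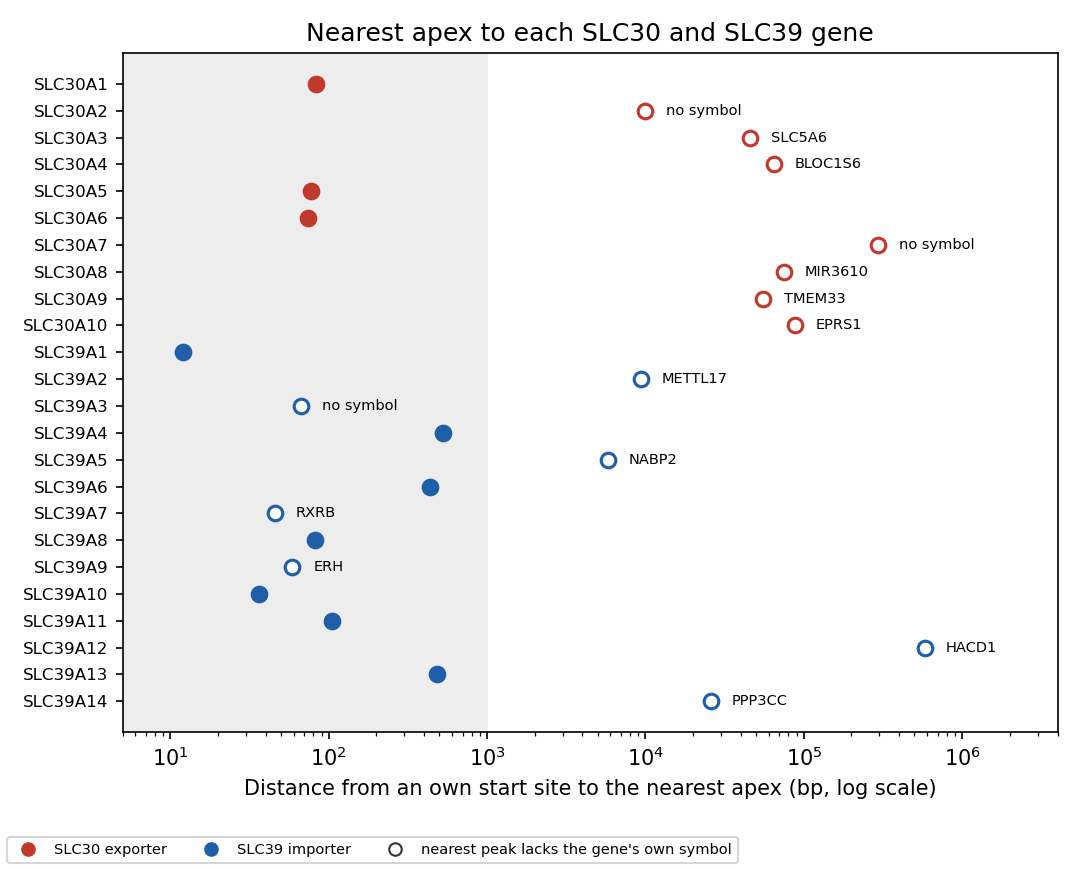
Distance in bp (log scale) from a transcript start of each SLC30 gene (red) and SLC39 gene (blue) to the nearest apex of the list. Filled circles mark a nearest peak with the gene's own symbol, open circles one without a symbol or with the symbol written beside it, and the shaded band is within 1 kb. The band holds 3 SLC30 and 10 SLC39 genes, of which SLC39A3, SLC39A7 and SLC39A9 are open.

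A metal response element core lay within 200 bp of the apex in 4 of the 8 member promoter peaks, at SLC30A1, SLC30A6, SLC39A10 and the lower SLC39A1 peak. Of all promoter peaks 45.7% held one and of all peaks 37.8%, so the share among the members was near the background. Exporters and importers had 2 each. With a window of 500 bp on each side the count was 6 of 8, beside 73.9% of all promoter peaks.

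A retinoid half-site (AGGTCA or AGTTCA or GGGTCA or GGTTCA) lay within 200 bp of the apex at 1 of the 8, SLC39A6, beside 45.6% of all promoter peaks. That site, 182 bp from the apex at 33709961 to 33709966, was outside the peak, which ended at 33709948. Among the peaks without a symbol, 2 of 3 had such a half-site, beside 63.7% of all peaks without a symbol. An ETS-type site (AGGAAGT or GGGAAGT) was found in 1 of the 8, at SLC30A6, against 22.3% of promoter peaks. GC boxes were in 4 of 8, against 76.2%, and CCAAT boxes in 5 of 8, against 44.1%. All 3 exporter promoters had a CCAAT box within 200 bp of the apex. That of SLC30A5, at 68389550 to 68389554, lay outside its peak except for the last base, as the peak began at 68389554. Counts of this size out of 8 were not tested, and a match of letters does not show which protein was bound.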

How the data were processed

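One peak list was analysed, made with the PML::RARA antibody from induced cells. According to the paper's methods and the labels, the authors used Trimmomatic for trimming, Bowtie2 for alignment to hg19 and SEACR with a paired control and its norm and union settings for peak calling, dropped duplicate and blacklisted reads, and kept those with an IDR below 0.05 over 2 replicates. The deposited values are a total signal and a score per peak, the score being the largest signal (height), read from the values, since the total was below height times width in all 15412 peaks. Scaling by library size is stated for the plotted tracks, and whether it holds for the deposited values is not stated. Whether the signal comes from 1 replicate or from both is not stated. The authors took genomic features from UCSC known genes, and how the symbols were given is not stated.

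The apex is the midpoint of the interval of largest signal, and in 34 peaks without an end it is the start. Start sites, exons and strands came from GENCODE release 44 on GRCh37, which is the assembly of hg19. Every peak lay within its chromosomes. Motifs were counted on both strands within 200 bp of the apex. The search for the metal response element core was tested on simulated sequences of A and T, and the other motifs were not tested in this way. No test was run, as no value per replicate was given. All 10 listed genes are named, with every other SLC30 and SLC39 gene. The members and lists were chosen with earlier results of these data known. Analyses used Python 3.11.15, numpy 2.4.6, pandas 2.3.3, scipy 1.17.1, pysam 0.24.0, matplotlib 3.10.9 and samtools 1.23.1.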

Additional observations from a re-analysis of the deposited data

How the results depend on the processing

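No paired analysis was possible because each peak has 1 value and none per replicate, which also kept replicates from being left out. Only 5 of the 11 peaks reached the median height of the list, a stricter threshold that shortens the list by construction. That threshold also moved the share of SLC39 genes with a promoter peak from 50% to 21.4%. Over all protein-coding genes it moved the share from 29.9% to 17.5%. The same threshold selects on height itself and leaves 1 importer peak. With it the exporter minus importer differences were reversed, to -0.05 for log2 height and -0.27 for log2 width. The width difference was also reversed, to -0.24, when peaks without a symbol were included, because 2 of these 3 narrow peaks lie at SLC30A1. Otherwise the height difference of 0.47 became 0.48 with means, 0.37 with the highest peak per gene and 0.28 with total signal, and the width difference of 0.41 became 0.50 with means and 0.49 with the highest peak per gene. Of the alternatives chosen after seeing the data, adding the SLC39A7 peak gave 0.37 for height and 0.34 for width, taking every SLC39 symbol 0.37 and 0.00, and leaving out the SLC30A1 peak 0.42 and 0.05. Merging neighbours and requiring an apex within 1 kb of an own start site changed neither difference. The set held 8 peaks with a window of 25 kb and 15 with 100 kb. The share of SLC30 genes stayed at 30.0% under its 3 alternatives.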

Other observations

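Beyond 50 kb, 4 more peaks without a symbol lay within 100 kb of a member promoter peak, and they are named here after their values were seen. The highest, on chromosome 2 from 196424082 to 196424606, was 36 high and 525 bp wide, with 80.0% of the list lower and 24.5% narrower. It lay 97487 bp from the SLC39A10 promoter peak, which had a height of 21. The annotated SLC39A10 gene begins between these 2 peaks, at 196440701, so the distance to the gene is shorter. Near SLC30A5 a peak on chromosome 5 from 68485213 to 68485977 reached 32, against 29 at the promoter. A peak of height 30 and width 375 bp lay 63055 bp from the MTF1 promoter peak, and 1 of height 24 and width 1098 bp lay 63389 bp from that of SLC30A1. The distant peak was thus higher than the promoter peak at SLC39A10, and slightly so at SLC30A5 and MTF1 (30 against 28), but lower at SLC30A1 (24 against 39). How often this holds over the whole list was not counted, so no pattern is read from it. Which gene a distant peak belongs to was not tested.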
